A study of Mus musculus with 18 samples.

Results

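The Tie signalling system of blood vessels was followed through its 5 core genes, taken by name: the receptor genes Tek (Tie2) and Tie1, the phosphatase gene Ptprb (VE-PTP), and the ligand genes Angpt1 and Angpt2. These are 5 of the 14068 genes listed in at least 1 of the 3 deposited tables. Tek, Tie1 and Ptprb were listed for choroid, retina and brain, and Angpt1 and Angpt2 for choroid and brain, which gives 13 of 15 possible gene-by-tissue measurements. The study sequenced RNA from mice carrying Tie2-cre and NuTRAP, a Cre-dependent reporter that tags ribosomes with GFP. All 18 libraries share this genotype. In each tissue 150 µl of cleared lysate was kept as input, and GFP-tagged ribosomes were pulled down from the rest to give the positive fraction, so that positive against input measures enrichment in Cre-expressing cells. There were 6 groups of 3 libraries, numbered 421, 953 and 960: input and positive fractions of choroid (scraped retinal pigment epithelium and choroid of 2 eyes), retina (2 retinae pooled) and brain (0.5 of a brain).

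The genotype limits what the positive fraction stands for. Tie2-cre is driven by regulatory sequence of Tek itself and is known to be active in endothelial cells and in blood cell lineages, so the fraction can hold ribosomes of macrophages and other blood cells as well as endothelium. Tek is therefore both a measured gene and the source of the driver's activity, and its enrichment is not independent of the way the cells were tagged. The sources used here give neither age nor sex of the mice, and the labels do not say what the library numbers mark. The p-values measure the spread between these libraries.

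Tek encodes the receptor tyrosine kinase of endothelial cells that binds the angiopoietins. Angiopoietin-1, made mostly by cells around the vessel, is its steady agonist and is known for keeping vessels quiescent and tight. Angiopoietin-2 is made by endothelial cells, stored there and released on activation, and acts as an agonist or antagonist depending on context. Tie1 is a related receptor that binds no angiopoietin with high affinity and modulates Tek, and VE-PTP removes phosphate from Tek and from VE-cadherin.

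The 5' flank of Tek is shown because sequence from this gene's regulatory region gives Tie2-cre its name. The RefSeq window (GRCm38.p6, plus strand) covers chr4:94739039-94739288. It ends at the base before the GENCODE start of the gene (94739289), and the deposited tables place the start at 94739300. The window is that of the endogenous gene. The sources used here do not say which fragment drives the transgene. Capitals mark the only match, on either strand, to the motifs searched:

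Tek: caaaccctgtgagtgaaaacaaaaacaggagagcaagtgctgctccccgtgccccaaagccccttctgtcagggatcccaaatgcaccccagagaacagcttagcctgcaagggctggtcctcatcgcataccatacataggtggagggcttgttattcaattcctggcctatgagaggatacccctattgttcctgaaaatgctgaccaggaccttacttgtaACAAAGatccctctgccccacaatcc

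The match is ACAAAG, a core of the kind bound by SOX factors, 26 bases before the GENCODE start. These letters are in 16.5% of the 32851 promoter windows, on 1 strand or the other. No match was found in this window for the ETS core GGAAG or its longer form CCGGAAG, nor for the GATA core AGATAA. The other SOX core searched, ACAATG, was absent as well. The forkhead core GTAAACA and the TATA box letters TATAAA had no match. The same holds for the GC box letters GGGCGG and the E box letters CACGTG. The Tie1 window of the same length (chr4:118489850-118490099, minus strand) lies before the deposited start of the gene (118489849). The GENCODE gene reaches 118490061, so part of this window lies inside it. Here GGAAG occurred 6 times over both strands, a core found at least once in 64.1% of windows. The longer ETS form CCGGAAG contains GGAAG, so matches to the pair can overlap. The table holds windows for 2 of the 5 genes; Ptprb, Angpt1 and Angpt2 have no entry. These matches describe letters only.

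Depth and tissue identity were as follows. The summed counts of listed genes ranged from 8807306 to 32064355 in input libraries and from 2649095 to 28277853 in positive libraries, lowest in the choroid positives. A table lists a gene only where all 3 libraries of at least 1 fraction reach 50 counts. Of 31 endothelial genes other than the 5, 30 of 30 measured in choroid, 27 of 28 in retina and 30 of 30 in brain were called higher in the positive fraction. Markers of macrophages and microglia rose as well, in 10 of 12, 9 of 9 and 14 of 14 measured genes, and their summed level went from 1784-3068 to 17396-25345 CPM (counts scaled to library size) in choroid. In retina the sum went from 37.8-43.2 to 217-950.33 CPM, and in brain from 399-624 to 5383-6981 CPM. Most abundant among these in the positive fractions were Lyz2 in choroid, Csf1r in retina and C1qb in brain. The neuron genes fell in brain (9 of 13) and retina (8 of 13), and the pigment epithelium genes fell in choroid (10 of 10). In retina 3 of 5 measured mural cell genes (median log2 fold change 2.45) and 3 of 5 fibroblast genes (median 1.46) were called higher with the receptors and none lower. The summed mural level was 903-971 CPM in retina inputs and 690.32-1186 CPM in the positives, and the fibroblast sum 56.1-75.5 and 309-417 CPM. Vtn alone averaged 917 CPM in these inputs and 720 CPM in these positives, so the mural sums are mostly 1 gene and do not describe the list. Mgp was the most abundant fibroblast gene in the positives, at a mean of 189 CPM. The part of the other cell types in the results below was not tested, and in these bulk fractions fewer cells of a type and less RNA per cell cannot be told apart. Brain input 960 stood apart, with correlations of log2 CPM of 0.908 and 0.910 with the other brain inputs, against 0.994 between those. Choroid libraries also differed among themselves, with correlations of 0.928 to 0.966 between inputs and 0.923 to 0.940 between positives. Choroid input 421 had an oligodendrocyte sum of 5871 CPM, against 774 and 823 in the other choroid inputs, and a rod and cone sum of 503 CPM, against 2294 and 5126. Choroid 421 was the highest library of its group for all 5 genes in both fractions. Without both its fractions the choroid enrichments were 3.39 for Tek, 3.97 for Tie1, 3.64 for Ptprb, -1.96 for Angpt1 and 2.45 for Angpt2, each still called.

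Tek, Tie1, Ptprb and Angpt2 were enriched wherever they were listed, and Angpt1 was depleted. Calls are at an adjusted p under 0.05 in edgeR's quasi-likelihood test with Benjamini-Hochberg adjustment over every gene of the table, and folds are positive over input. In choroid 4 of the 5 genes were called higher and 1 lower, where 21.1% of 11718 genes were called higher and 20.9% lower. In retina 3 of 3 were called higher, against 18% of 12369 genes. In brain 4 were called higher and 1 lower, against 21.2% and 18.3% of 12919 genes. The listing rule shaped these counts, since a gene needs 50 counts in every library of only 1 fraction. Tek and Tie1 in retina (inputs of 35 to 52 and 16 to 49 counts), and Tek (47 to 309) and Angpt2 (22 to 92) in brain, were listed through the positive fraction alone, and Angpt1 in choroid through the input alone. Genes listed in this way are high in 1 fraction by construction, so the counts of calls are a description. The median log2 fold change of all genes was -0.03 in choroid, -0.01 in retina and -0.07 in brain.

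**Figure D1:**
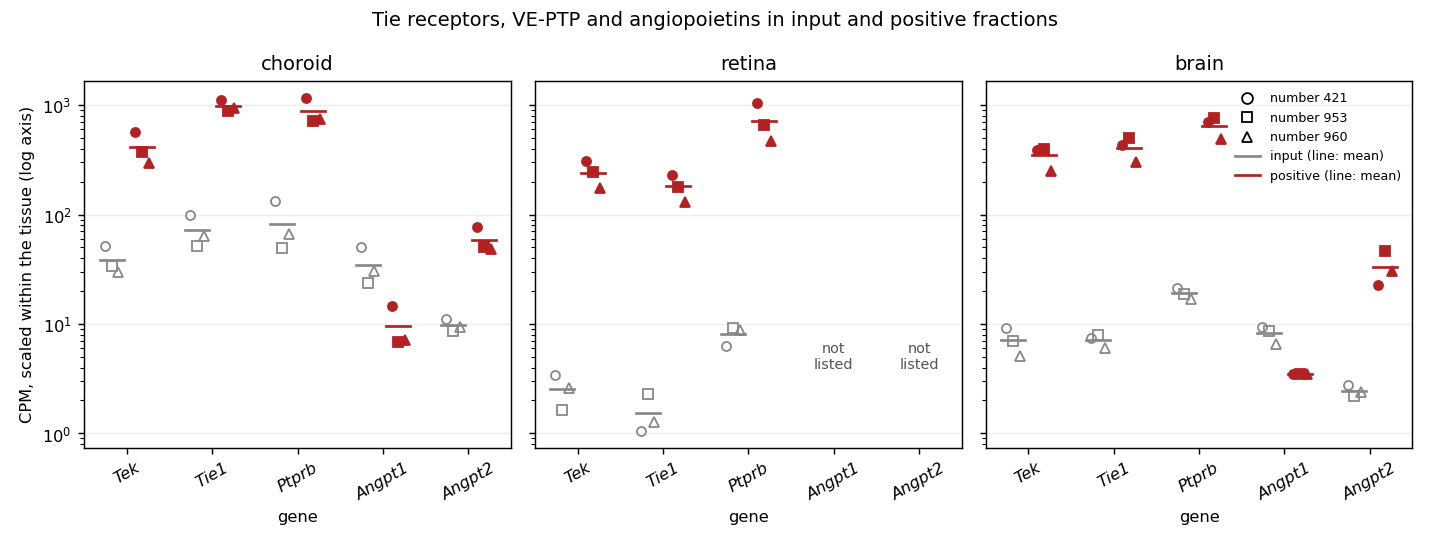
Level of each gene in every library, in CPM scaled within the tissue on a log axis, with input libraries as open grey symbols, positive libraries as filled red symbols and group means as lines. Tek, Tie1, Ptprb and Angpt2 sit higher in all positive libraries than in any input of the same tissue, and Angpt1 sits lower.

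Tek, the angiopoietin receptor, lies on chr4:94739300-94874939, plus strand (mm10; ENSMUSG00000006386). In choroid its input values were 51.9, 33.8 and 29.6 CPM (libraries 421, 953 and 960 in this order throughout), and its positive values 564.57, 371.06 and 297.55 CPM. Library 421 was the highest of its group in both fractions and 960 the lowest, and the groups did not overlap. The log2 fold change was 3.42 ± 0.32 (SE, n = 3 per group; edgeR adjusted p = 0.000165), or 10.7-fold. In retina Tek was near the floor of the input, at 3.41, 1.64 and 2.63 CPM, and reached 307, 242 and 174 CPM in the positive fraction. The difference was 6.58 ± 0.31 (SE; edgeR adjusted p = 1.68e-06), or 95.8-fold. Here too library 421 was highest in both fractions. In brain the inputs held 9.26, 7.06 and 5.09 CPM and the positives 392, 397 and 249.83 CPM, with 960 lowest in both. Enrichment was 47.8-fold, or 5.58 ± 0.33 on the log2 scale (SE; edgeR adjusted p = 5.21e-05). By log2 fold change Tek ranked 68 of 11718 genes in choroid, 25 of 12369 in retina and 30 of 12919 in brain.

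Tie1, the partner receptor of Tek, lies on the same chromosome at chr4:118471191-118489849, minus strand (ENSMUSG00000033191), and ranked higher than Tek in each tissue. Its choroid inputs were 98.9, 51.7 and 63.8 CPM and its positives 1122.8, 880.72 and 940.97 CPM. All 3 positives were several times higher than the highest input. Enrichment was 13.7-fold, with a log2 fold change of 3.78 ± 0.29 (SE, n = 3 per group; edgeR adjusted p = 8.4e-05), rank 31. In retina Tie1 went from 1.05, 2.29 and 1.29 CPM to 232, 179 and 129.89 CPM. The step of 6.82 ± 0.32 log2 units (SE; edgeR adjusted p = 1.68e-06), or 113-fold, ranked 15 of all listed genes. These retina inputs have the lowest mean of the 13 input groups and stand on 16, 49 and 24 counts, so the fold rests on few input reads. In brain the inputs were 7.37, 7.88 and 6.07 CPM and the positives 430.4, 496 and 299.66 CPM. The brain log2 fold change was 5.83 ± 0.27 (SE; edgeR adjusted p = 4.11e-05), a 57.1-fold enrichment at rank 17.

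Ptprb encodes VE-PTP, the endothelial receptor phosphatase that acts on Tek, and lies on chr10:116301374-116389538, plus strand (ENSMUSG00000020154). Its choroid inputs varied most, at 131, 49.4 and 66.1 CPM, and its positives were 1166, 708 and 745 CPM. Library 421 was highest in both fractions, and the lowest positive was still far higher than the highest input. Enrichment was 3.41 ± 0.40 on the log2 scale (SE, n = 3 per group; edgeR adjusted p = 0.000402), or 10.6-fold. In retina the inputs held 6.23, 9.25 and 8.84 CPM and the positives 1039.7, 651 and 467 CPM. The library lowest in input, 421, was the highest in the positive fraction. The retina log2 fold change was 6.46 ± 0.34 (SE; edgeR adjusted p = 3.01e-06), or 88.1-fold. In brain Ptprb went from 21.5, 18.8 and 16.8 CPM to 700.16, 756 and 490.34 CPM, again without overlap. The brain enrichment was 34.0-fold, 5.09 ± 0.25 on the log2 scale (SE; edgeR adjusted p = 4.11e-05).

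Angpt1, the agonist ligand, was lower in the positive fraction of both tissues that list it, unlike the other 4 genes. It lies on chr15:42424725-42676795, minus strand (ENSMUSG00000022309). In choroid its inputs were 50.07, 23.8 and 30.2 CPM and its positives 14.5, 6.79 and 7.21 CPM. These positives stood on 64, 22 and 17 counts, and even the highest of them was lower than the lowest input. The log2 fold change was -1.83 ± 0.39 (SE, n = 3 per group; edgeR adjusted p = 0.00636), or 3.56-fold lower. In brain the inputs held 9.44, 8.56 and 6.61 CPM and the positives 3.49, 3.51 and 3.47 CPM, on 97, 63 and 85 counts. The 3 positives were nearly equal and all lower than the inputs. The brain value was -1.24 ± 0.21 (SE; edgeR adjusted p = 0.0042), or 2.36-fold lower. Without both brain fractions of 421 it was -1.12 (edgeR adjusted p = 0.116), and without both of 953 -1.24 (edgeR adjusted p = 0.0896) (both not called). It was -1.37 and called without both of 960. An antisense gene, Gm17473, shares 737 exon bases with Angpt1 on the opposite strand and is in none of the tables. The kit keeps strand, but the sources used here do not say whether the counting used it. Whether reads of the 2 genes were told apart over these bases is therefore not known.

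The mural cell genes mark the pericytes and smooth muscle known as a source of angiopoietin-1, and their calls were mixed. In choroid 7 of 13 measured mural genes were called lower and 2 higher, where 20.9% of all genes were called lower and 21.1% higher. The mural median log2 fold change was -1.28, and the summed level was 545-814 CPM in inputs and 816-847 CPM in positives. In brain 3 of 11 were called lower, none higher and 8 not called, where 18.3% of all genes were called lower. The brain median was -0.51, with sums of 160-199 CPM in inputs and 103-131 CPM in positives. The fibroblast genes were called lower in 8 of 10 in choroid and 6 of 8 in brain, and 1 was higher in each. Their median log2 fold change was -1.52 in choroid and -1.22 in brain. Their summed level was 2303-3051 and 1542-2928 CPM in choroid inputs and positives, and 188-233 and 389-583 CPM in those of brain. Mgp alone averaged 1399 CPM in choroid positives and 430 CPM in brain positives. The positive sums are thus mostly 1 gene and do not describe the list. Their part in the Angpt1 values was not tested.

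Angpt2, the ligand of endothelial cells, was enriched in both tissues that list it. It lies on chr8:18690263-18741562, minus strand (ENSMUSG00000031465), inside the span of Mcph1 on the opposite strand, with which it shares 0 exon bases. In choroid its inputs were 11.2, 8.56 and 9.40 CPM and its positives 76.2, 50.6 and 48.3 CPM. The groups were far apart, and enrichment was 6.02-fold, a log2 fold change of 2.59 ± 0.25 (SE, n = 3 per group; edgeR adjusted p = 0.000188). In brain the inputs held 2.76, 2.21 and 2.38 CPM and the positives 22.9, 46.8 and 30.3 CPM. Library 421, the highest input, was here the lowest positive. The brain log2 fold change was 3.76 ± 0.32 (SE; edgeR adjusted p = 0.00018), or 13.5-fold. In rank by log2 fold change Angpt2 stood at 266 in choroid and 379 in brain, behind the receptors and the phosphatase. In each tissue its fold was below the median of the endothelial genes, which was 3.40 in choroid and 5.16 in brain.

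**Figure D2:**
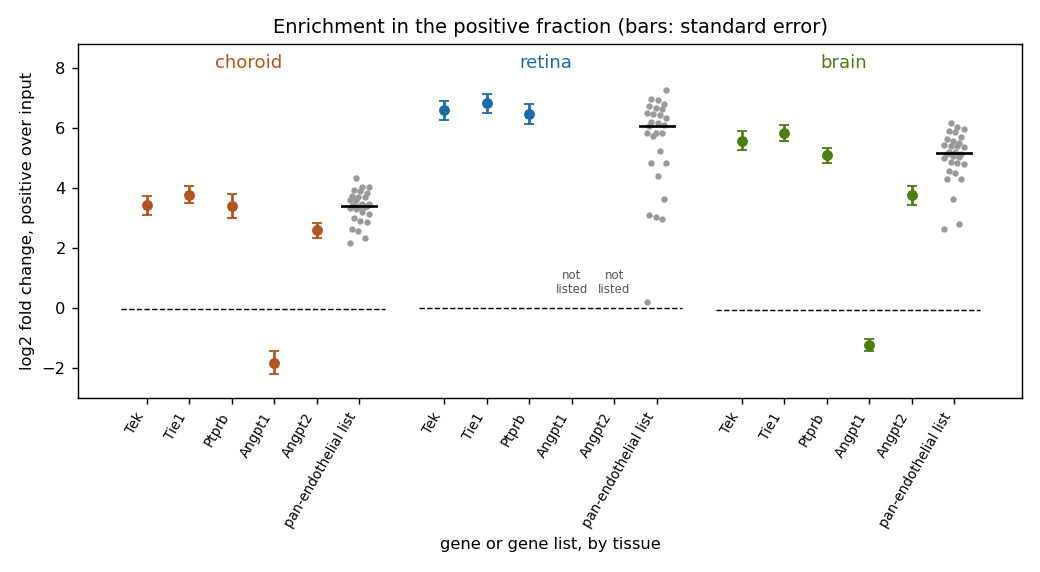
Enrichment of each gene as the log2 fold change of positive over input with its standard error, by tissue, beside the 30, 28 and 30 measured genes of the endothelial list (grey points, black line at their median) and the median of all genes (dashed line). Tek, Tie1 and Ptprb lie near the endothelial median in each tissue, Angpt2 lies lower, and Angpt1 is negative.

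Neither ligand was listed in retina. Absence from that table means that at least 1 library of each retina fraction had fewer than 50 counts, which is 2.32 to 3.28 CPM in the inputs and 4.52 to 7.99 CPM in the positives. A level under these values was not detectable from the tables. With each tissue scaled on its own, the choroid and brain positives of Angpt2, at 22.9 CPM or more, were all higher than the range of the retina positives. Those of Angpt1 were inside it (6.79 and 7.21 CPM) or higher (14.5 CPM) in choroid, and lower in brain.

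Between the ligands the balance turned over. In choroid inputs there were 0.223, 0.360 and 0.312 Angpt2 counts for each Angpt1 count, and in the positives 5.25, 7.45 and 6.71. In brain the inputs had 0.292, 0.258 and 0.361 and the positives 6.56, 13.3 and 8.72. All 6 inputs had more Angpt1 counts than Angpt2 counts and all 6 positives had fewer. The input ratios of choroid and brain overlapped, as did those of the positives. Because the counts are not per length, only differences of the ratio between libraries are read. With 3 libraries against 3, an exact permutation test cannot go below p = 0.1, and no test was run on the ratios.

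The receptors did not keep a fixed proportion between tissues. In the positives Tie1 had 1.99, 2.37 and 3.16 counts per Tek count in choroid, 1.10, 1.25 and 1.20 in brain, and 0.753, 0.741 and 0.748 in retina. No value of 1 tissue fell within the range of another, and the 3 retina libraries differed least. In the inputs the ratio was 1.90, 1.53 and 2.16 in choroid, 0.796, 1.12 and 1.19 in brain, and 0.308, 1.40 and 0.490 in retina, so choroid was again highest while retina and brain overlapped. Ptprb had 3.38, 2.69 and 2.69 counts per Tek count in retina positives, higher than the 2.07, 1.91 and 2.50 of choroid and the 1.79, 1.90 and 1.96 of brain, and the last 2 overlapped. A ratio within 1 library does not depend on how libraries are scaled to each other.

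**Figure D3:**
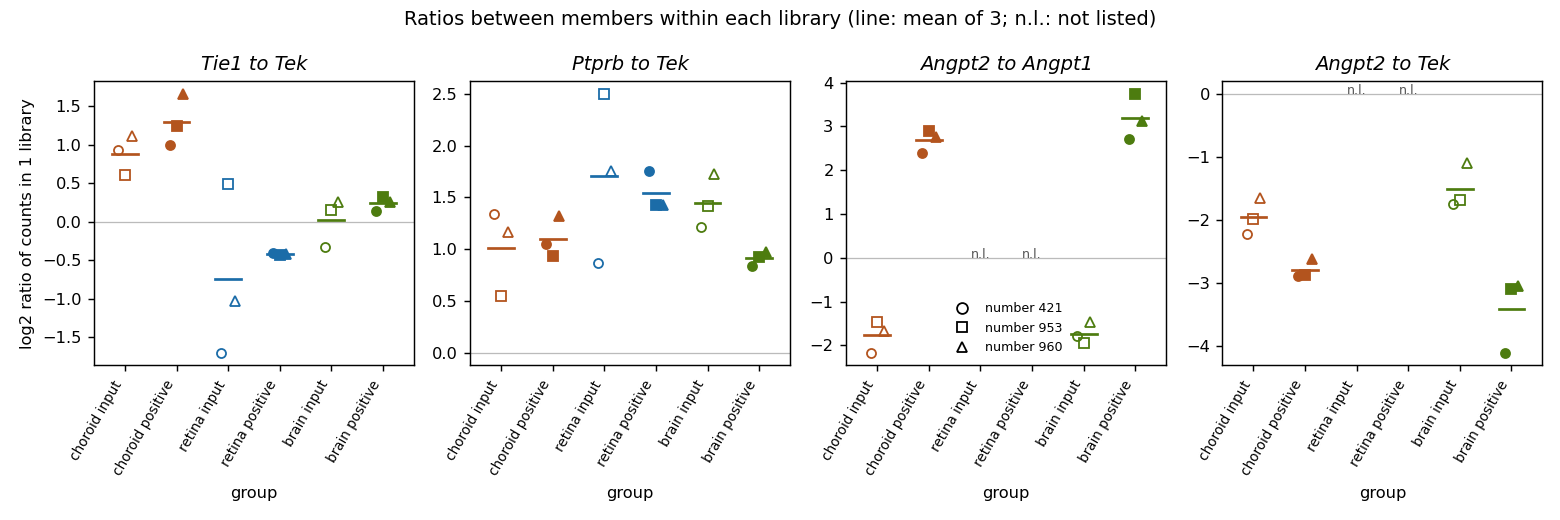
log2 ratio of the counts of 2 genes in each library, by tissue and fraction (open symbols inputs, filled symbols positives, lines means of 3, n.l. not listed). The Tie1 to Tek positives separate into choroid, brain and retina from high to low, and Angpt2 to Angpt1 is negative in every input and positive in every positive library.

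Enrichment of the receptors and the phosphatase was weaker in choroid than in the other tissues. This was tested as the difference of the log2 fold changes in 1 fit of all 18 libraries over the 10505 genes in all tables. Against brain, choroid enrichment was lower for Tek (-1.98 ± 0.44 (SE), edgeR adjusted p = 0.0038), Tie1 (-1.88 ± 0.40, adjusted p = 0.00246) and Ptprb (-1.51 ± 0.48, adjusted p = 0.0298). That is 3 of 3 genes, where 12.3% of all genes were called lower. Over all genes 1286 were called higher and 1296 lower, and with scaling by library size only 547 and 2196, under which all 3 genes stayed called. The Ptprb call was lost without choroid input 421 (-1.16, adjusted p = 0.055), brain positive 421 (-1.45, adjusted p = 0.0616) or brain positive 953 (-1.40, adjusted p = 0.0701). Against retina the differences were -3.13 ± 0.47 for Tek (adjusted p = 0.000144), -3.03 ± 0.42 for Tie1 (adjusted p = 8.07e-05) and -3.03 ± 0.49 for Ptprb (adjusted p = 0.000292). Again 3 of 3 were called lower, against 18% of all genes. Tek and Tie1 are listed in retina through the positive fraction alone (inputs of 35 to 52 and 16 to 49 counts). The same holds for Tek in brain (47 to 309). Differences with these tissues thus include genes that the listing rule takes as high in 1 fraction, and the counts of calls are a description. The endothelial list went the same way, with 22 of 28 genes called lower in choroid than in brain (median -1.67) and 22 of 28 lower than in retina (median -2.52), with 1 higher in the latter. These comparisons share the choroid libraries.

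Retina against brain gave smaller differences near the threshold. Ptprb was more enriched in retina by 1.53 ± 0.49 (SE; edgeR adjusted p = 0.0475), Tek by 1.15 ± 0.46 (adjusted p = 0.111) and Tie1 by 1.15 ± 0.42 (adjusted p = 0.0811). Only Ptprb passed, 1 of 3, with 8.33% of all genes called higher. Its call was lost without any 1 of 11 of the 12 libraries, at adjusted p from 0.0617 to 0.123, and held without retina positive 960. With the lysate as a replicate block, which pairs each input with the positive fraction of the same supernatant, all 3 passed: Tek was 1.10 (adjusted p = 0.0238) and Tie1 1.15 (adjusted p = 0.0402). For Tie1 the difference also passed without retina input 953 (1.56, adjusted p = 0.0413) and without retina positive 960 (1.34, adjusted p = 0.0436).

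For the ligands the same difference was taken over the 12 choroid and brain libraries and the 11121 genes in both tables, a fit chosen after seeing that retina lists neither ligand. The choroid minus brain difference was -0.40 ± 0.47 for Angpt1 (SE; edgeR adjusted p = 0.584) and -0.97 ± 0.39 for Angpt2 (adjusted p = 0.0994). Neither passed, against 20.6% of genes called in either direction. In this fit the Ptprb difference was -1.49 ± 0.47 (adjusted p = 0.0431), and -0.97 (adjusted p = 0.089, not called) without choroid input 421. Without choroid positive 421 the Angpt2 difference was -1.21 (adjusted p = 0.0466).

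The inputs give the levels in the tissues before pull-down. In CPM scaled over the 9 inputs, Tek had means of 44.9 ± 14.1 in choroid, 8.36 ± 2.49 in brain and 2.71 ± 0.950 in retina (SD, n = 3). Tie1 had 83.5 ± 29.0, 8.31 ± 1.13 and 1.63 ± 0.692 CPM in the same order, and Ptprb 96.3 ± 51.2, 22.3 ± 2.87 and 8.60 ± 1.72 CPM. All 3 genes thus had the order choroid, brain, retina, and each step passed the test. Choroid exceeded brain by 2.40 ± 0.33 for Tek (SE; edgeR adjusted p = 0.000242), 3.32 ± 0.32 for Tie1 (adjusted p = 2.7e-05) and 2.11 ± 0.35 for Ptprb (adjusted p = 0.000728) on the log2 scale. The count was 3 of 3, where 26.7% of all genes were called higher. Retina was lower than brain by the log2 differences -1.66 ± 0.35 (adjusted p = 0.00319), -2.33 ± 0.34 (adjusted p = 0.00044) and -1.37 ± 0.35 (adjusted p = 0.00846) for Tek, Tie1 and Ptprb. Again it was 3 of 3, against 34.7% of all genes called lower. Between choroid and retina the gap was 16.7-fold for Tek, 50.008-fold for Tie1 and 11.2-fold for Ptprb, 3 of 3 higher against 31.9% of all genes. The retina inputs stand on 35 to 52 counts for Tek and 16 to 49 for Tie1, so these folds rest on few reads. Both genes are listed in retina, and Tek in brain (47 to 309), through the positive fraction alone. Genes listed in this way can be low in the input by construction, so these counts of calls are a description. Angpt1 and Angpt2 were also higher in choroid than in brain inputs, 4.05-fold (adjusted p = 0.00192) and 3.80-fold (adjusted p = 0.0006) in the fit of both tables, where 24.2% of genes were called higher.

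After pull-down the tissues were closer, and Tie1 was the gene that still differed between all of them. Scaled over the 9 positives, Tie1 was 1198.2, 927.38 and 1001 CPM in choroid, 432.3, 495.9 and 302.7 in brain, and 244.27, 191.61 and 137.23 in retina, with no overlap between tissues. Choroid exceeded brain 2.54-fold (log2 1.35 ± 0.25 (SE), edgeR adjusted p = 0.000648), where 23.1% of all genes were called higher, and retina 5.46-fold (2.45 ± 0.26, adjusted p = 2.58e-06), where 32.9% were. Retina was 2.15-fold lower than brain (-1.10 ± 0.24, adjusted p = 0.00173), against 31.0% of genes called lower. For Tek the means were 437 ± 148, 348 ± 82.8 and 255 ± 70.5 CPM in choroid, brain and retina (SD, n = 3), and neighbouring tissues overlapped. The Tek difference of choroid against retina was 0.78 ± 0.28 (SE; adjusted p = 0.0235). It did not pass without choroid positive 421 (0.47, adjusted p = 0.122), retina positive 953 (0.78, adjusted p = 0.0599) or retina positive 960 (0.58, adjusted p = 0.0917). Choroid against brain was 0.33 ± 0.28 for Tek (adjusted p = 0.352) and retina against brain -0.45 ± 0.28 (adjusted p = 0.174). The Ptprb means were 927 ± 276, 651 ± 138 and 762 ± 307 CPM in choroid, brain and retina (SD, n = 3), and none of its 3 differences passed. They were 0.51 ± 0.30 for choroid over brain (adjusted p = 0.181), 0.23 ± 0.30 for retina over brain (adjusted p = 0.521) and 0.28 ± 0.30 for choroid over retina (adjusted p = 0.405).

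The ligands also differed between the choroid and brain positives, in the fit of both tables chosen after seeing the data. Angpt1 was 14.4, 6.76 and 7.20 CPM in choroid and 3.37, 3.32 and 3.41 CPM in brain. It was 2.89-fold higher in choroid (log2 1.53 ± 0.33 (SE), edgeR adjusted p = 0.00418). Angpt2 was 75.6, 50.4 and 48.3 CPM in choroid and 22.1, 44.4 and 29.7 CPM in brain, or 1.83-fold higher (0.87 ± 0.28, adjusted p = 0.0274). Both were called higher, as were 24.2% of genes. The Angpt2 call was lost without choroid positive 421 (0.61, adjusted p = 0.104), brain positive 421 (0.66, adjusted p = 0.0945) or brain positive 960 (0.82, adjusted p = 0.0866).

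Set beside other endothelial transcripts of the same library, Tek and Ptprb stood highest in retina and Tie1 in choroid. The measure is the gene's log2 CPM minus the mean log2 CPM of the 28 endothelial genes listed in all 3 tables. In the positives Tek was at 1.32 ± 0.08 in retina, 0.58 ± 0.18 in brain and 0.33 ± 0.30 in choroid (SD, n = 3), and the retina libraries were all higher than the others. Ptprb was at 2.86 ± 0.23 in retina, 1.49 ± 0.11 in brain and 1.43 ± 0.23 in choroid, with the same separation. Tie1 was at 1.63 ± 0.07 in choroid, 0.90 ± 0.08 in retina and 0.82 ± 0.12 in brain, so choroid stood apart from the others. Angpt2 was at -2.47 ± 0.18 in choroid and -2.82 ± 0.43 in brain, and Angpt1 at -5.13 ± 0.43 and -5.97 ± 0.26. Against the list's median in place of its mean, choroid moved to 0.02 for Tek, 1.12 for Ptprb and 1.32 for Tie1. By that measure Tek and Ptprb were still highest in retina and Tie1 in choroid. Angpt2 was then at -2.77 in choroid and -2.80 in brain. In retina 23 of these 28 endothelial genes were called lower than in brain positives (median -1.26, all genes -0.01). The share of all genes called lower was 31%. Tie1 (-1.10) was called lower as well, and Tek (-0.45) and Ptprb (0.23) were not called. With positives blocked by number Tek was called lower too (-0.46, edgeR adjusted p = 0.0347), though the labels do not say that numbers pair between tissues.

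**Figure D4:**
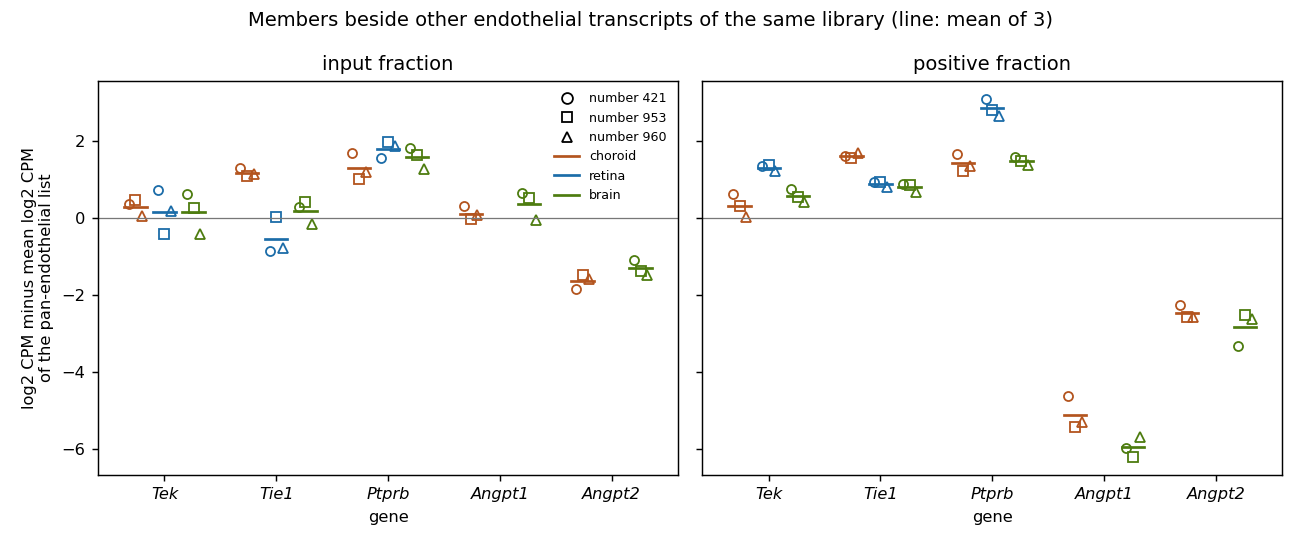
Level of each gene relative to the endothelial list, as log2 CPM minus the list's mean log2 CPM in the same library, for inputs (left) and positives (right), colours by tissue and lines at the mean of 3. In the positives Tek and Ptprb are highest in retina, Tie1 is highest in choroid, and Angpt1 lies near -5 to -6, far from its place near 0 in the inputs.

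In the inputs the same measure placed Angpt1 close to the mean endothelial gene, at 0.12 ± 0.17 in choroid and 0.38 ± 0.37 in brain (SD, n = 3). Angpt2 was lower there, at -1.64 ± 0.18 and -1.30 ± 0.20. The receptors were near the list's mean too, Tek at 0.30 ± 0.23, 0.16 ± 0.52 and 0.17 ± 0.57 in choroid, brain and retina. Tie1 was at 1.18 ± 0.10, 0.19 ± 0.30 and -0.53 ± 0.49 in that order. For Ptprb the retina inputs were at 1.81 ± 0.22, brain at 1.59 ± 0.28 and choroid at 1.31 ± 0.35. Against the list's median in place of its mean these were 2.13, 1.61 and 1.17, so the gaps depend on that choice.

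Levels of different genes were compared per kilobase of annotated exon, since the transcripts differ in length (GENCODE M21 exon length 13333 bases for Ptprb against 4712 for Tek, 4917 for Tie1, 5205 for Angpt1 and 3690 for Angpt2). In choroid positives Tie1 was highest at 199.6 ± 25.6 CPM per kb (SD, n = 3), followed by Tek at 87.2 ± 29.3, Ptprb at 65.5 ± 19.1, Angpt2 at 15.8 ± 4.20 and Angpt1 at 1.83 ± 0.836. The ranges of Tek and Ptprb overlapped, and the other neighbours in this order did not. In brain positives the order was Tie1 (83.1 ± 20.3), Tek (73.5 ± 17.8), Ptprb (48.7 ± 10.5), Angpt2 (9.03 ± 3.32) and Angpt1 (0.671 ± 0.00327). The range of Tek overlapped those of Tie1 and Ptprb, and the ligands stood apart. In retina positives the order was Ptprb (54.0 ± 21.9), Tek (51.1 ± 14.2) and Tie1 (36.7 ± 10.3), with overlapping ranges. Brain inputs held the receptors, the phosphatase and Angpt1 at nearly the same level by this length, from 1.43 ± 0.176 for Ptprb to 1.58 ± 0.279 for Angpt1. With the length of the longest transcript they ran from 1.53 for Tek to 1.93 for Angpt1. Ptprb starts at 116275523 in GENCODE and at 116301374 in the deposited tables, so its length need not match what was counted. Choroid inputs ran from 2.63 ± 0.361 for Angpt2 to 14.5 ± 4.98 for Tie1.

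The genes most like the receptors across libraries were other endothelial genes. Pearson's r of log2 CPM over the 18 libraries is a description, since the libraries share tissue and fraction. For Tek it was highest with Cd93 (0.993), Gpr116 (0.992) and Cdh5 (0.991), the last encoding VE-cadherin. For Tie1 it was highest with Eng (0.993), Ushbp1 (0.993) and Tmem204 (0.992), and for Ptprb with Tek itself (0.990), Fgd5 (0.989) and Pecam1 (0.988). Over the 9 positives alone, where fraction no longer separates the points, the receptors parted: Tek was most like Cdh5 (0.963), Cd93 (0.960) and Sav1 (0.960), Tie1 most like Ece1 (0.995), Dll4 (0.995) and Ctgf (0.992), and Ptprb most like Col4a1 (0.966), Col4a2 (0.962) and Fpgs (0.959). The pairs of the 3 genes correlated at 0.857 for Tek and Tie1, 0.816 for Tek and Ptprb, and 0.643 for Tie1 and Ptprb over these 9.

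Of the wider pathway, 58 further genes were listed by role. The lists were chosen with earlier results of these data known, and Cdh5, Eng, Nos3 and Esm1 are also in the endothelial list. Their counts of calls are therefore a description. In choroid 24 of 50 measured were called higher and 6 lower in the positive fraction, with a median log2 fold change of 0.43. In retina it was 22 higher and 7 lower of 47 (median 0.43), and in brain 28 higher and 5 lower of 51 (median 0.92). Over all genes 21.1% were called higher and 20.9% lower in choroid, 18% and 13.7% in retina, and 21.2% and 18.3% in brain, the background for the counts of each list below. Medians of all genes were near 0, as given above. The list of receptors and partners, the 3 genes above included, had 8 of 10 called higher in choroid and 9 of 10 in retina and brain. Eng, the endothelial coreceptor endoglin, rose by 6.10 ± 0.29 in retina (SE; edgeR adjusted p = 1.66e-06) and 5.56 ± 0.21 in brain (adjusted p = 4.01e-05). Itgav, an integrin subunit, was called lower in all 3 tissues, with log2 fold changes of -2.25 ± 0.21 in choroid (adjusted p = 0.000161), -0.75 ± 0.17 in retina (adjusted p = 0.0121) and -1.26 ± 0.16 in brain (adjusted p = 0.00123). Adam10, a protease that sheds membrane proteins, was at 0.37 ± 0.23 in choroid (adjusted p = 0.224) and was called higher in retina (0.56 ± 0.10, adjusted p = 0.00314) and brain (0.71 ± 0.18, adjusted p = 0.0199).

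Among other ligand-like genes only Svep1, a matrix protein described as binding Tie1, was listed, in choroid alone, at -1.16 ± 0.44 (SE; edgeR adjusted p = 0.0633). The adaptors and kinases downstream of Tek are used by most cell types, and they spread around 0. In choroid 8 of 28 were called higher and 4 lower, in retina 8 and 5 of 28, and in brain 11 and 3 of 30. In choroid Grb2 (1.21 ± 0.15), Rhoa (1.06 ± 0.16) and Nck1 (1.28 ± 0.20) rose. In retina Akt1 rose by 0.58 ± 0.10, Pxn rose by 0.65 ± 0.12 and Crkl was lower (-0.65 ± 0.12). In brain Pik3cg, a kinase subunit best known from leukocytes, rose by 3.49 ± 0.28, with Shc1 at 2.54 ± 0.22 and Pxn at 2.44 ± 0.23. The macrophage and microglia genes rose in the same brain fractions (14 of 14), and their part in this value was not tested. Ptpn11, the phosphatase SHP2, was not called in choroid (-0.31 ± 0.18) or retina (-0.23 ± 0.10).

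Of the transcription factors and target genes, 11 of 14 were called higher in choroid, 8 of 12 in retina and 11 of 14 in brain, and 1 was lower in each. Dll4, the Notch ligand of endothelial cells, rose by 3.86 ± 0.21 in choroid, 5.33 ± 0.37 in retina and 5.25 ± 0.26 in brain (SE). Klf2, a flow-responsive factor, rose by 3.44 ± 0.21 in choroid and 6.10 ± 0.21 in retina. Nos3, the endothelial nitric oxide synthase, rose by 3.29 ± 0.21 in choroid and 4.80 ± 0.18 in brain, and Pdgfb by 6.004 ± 0.34 in retina and 3.44 ± 0.23 in brain. The forkhead factor Foxo1, which is held back by Tek signalling and drives Angpt2, was called higher in choroid (1.39 ± 0.23, adjusted p = 0.00179) and brain (0.99 ± 0.14, adjusted p = 0.00165), and was at 0.43 ± 0.15 in retina (adjusted p = 0.0544). Foxo3 was called lower in retina (-0.59 ± 0.13, adjusted p = 0.00981), and was at -0.83 ± 0.45 in choroid (adjusted p = 0.166) and -0.57 ± 0.73 in brain (adjusted p = 0.568).

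**Figure D5:**
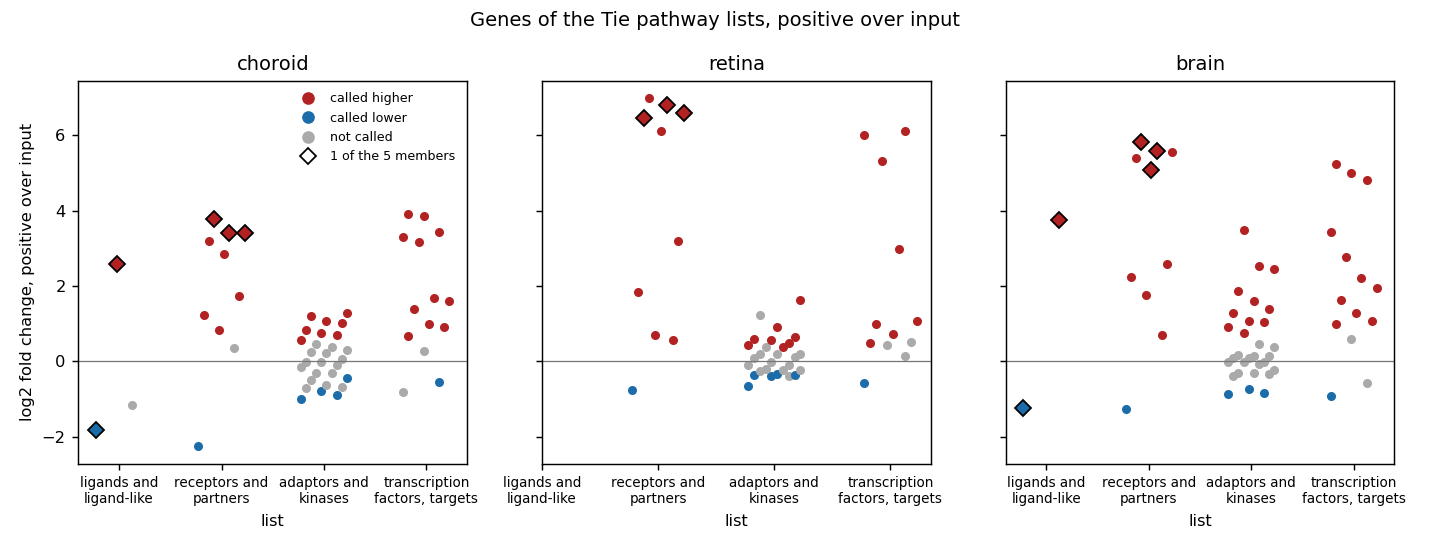
log2 fold change of positive over input for genes of the 4 pathway lists in each tissue, red called higher, blue called lower, grey not called, diamonds for the 5 genes. The adaptors and kinases spread around 0, with their highest values in brain.

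Factors described as binding the Tek or Angpt2 regulatory regions, a list of ETS, GATA and other families, were called higher in 11 of 16 in choroid, 11 of 14 in retina and 12 of 17 in brain, with 1, 1 and 0 lower. Their median log2 fold changes were 0.93, 2.62 and 2.57. The most abundant of them in the positives was Epas1, the hypoxia-inducible factor of endothelium, at a mean of 1508.6 CPM in choroid, 1225.8 in retina and 2054.4 in brain. Other receptor tyrosine kinases and receptor phosphatases were more mixed than the Tie genes, with 8 of 17 called higher and 5 lower in choroid, 8 and 1 of 16 in retina, and 10 and 4 of 17 in brain. Kdr, the main VEGF receptor, was 1 of these and the single endothelial gene of 28 not called in retina (0.19 ± 0.23 (SE), edgeR adjusted p = 0.555). It was named after its values were seen. Its retina inputs averaged 129 CPM, where Tek, Tie1 and Ptprb had 2.56, 1.54 and 8.11 CPM.

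Over the positives of different tissues, the 58 pathway genes were called higher in choroid than in brain in 16 of 47 measured and lower in 11, where 23.1% of all genes were called higher and 23.8% lower. Retina was lower than brain for 29 of 47 and higher for 5, with a median log2 difference of -0.74, against 31% of all genes lower and 32.1% higher. Choroid was higher than retina for 27 of 47 and lower for 11, with a median of 0.81, against 32.9% and 39.1% of all genes. Tie1 was called in the direction with more calls in each of these comparisons. Without brain input 960, the library that stood apart, the brain enrichments were 5.40 for Tek, 5.74 for Tie1, 5.01 for Ptprb, -1.37 for Angpt1 and 3.73 for Angpt2, each still called.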

How the data were processed

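Expected counts per gene were deposited by the authors in 1 table per tissue, with fractions of a read (72.0%, 91.5% and 90.2% of values in choroid, retina and brain are not whole within 0.001), and were rounded here. The normalized columns, log2 values made by the authors, were only checked against the counts (99.93 to 99.96% explained within 0.001) and not tested. Per the file headers, listing needs 50 counts or more in every library of the input or of the positive fraction, and columns are marked "WT". The submitters' processing notes name DESeq and mm10, and the sources used here do not give the aligner, counter or strand setting.

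Groups and numbers came from the titles. Enrichment was tested per tissue, and tissues were compared over all 18 libraries, 9 inputs or 9 positives, with edgeR 4.0.16 in R 4.3.3 (TMM, filterByExpr, quasi-likelihood F test, Benjamini-Hochberg over all genes tested, calls at 0.05). SE is the log2 fold change over the square root of F. Correlations used log2 CPM with a prior count of 2 and left out genes averaging under 5 CPM. Fits were tested on simulated data. The same supernatant gave input and positive fraction, so same-numbered fractions of a tissue form pairs. The fits reported carry no block for these pairs, and the lysate block was an alternative. Deviations of paired fractions from the group means correlated at 0.268 to 0.632 in choroid, 0.034 to 0.189 in brain and 0.008 to 0.087 in retina. The alternatives were other scalings, filters, DESeq2 1.42.0, rounding down, the block and leaving out libraries.

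Named were the 5 genes, and of each pathway list in each tissue the 3 called genes with the smallest adjusted p and the 2 uncalled with the highest mean CPM. A selection of these is printed. Other tissues are given for some named genes only, so a tissue that is not printed need not share the call. Likewise named were the 3 genes most correlated with each receptor or phosphatase, and the most abundant gene of a marker list. Members and lists were chosen with earlier results of these data known. Promoter windows are from RefSeq (GRCm38.p6), and exon lengths from GENCODE M21.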

Additional observations from a re-analysis of the deposited data

Results flagged for a closer look

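The results here are differences in enrichment between tissues, each tested as the difference of 2 log2 fold changes in the fit of all 18 libraries. The choroid minus brain difference was -1.98 for Tek, -1.88 for Tie1 and -1.51 for Ptprb, with edgeR adjusted p of 0.0038, 0.00246 and 0.0298. Choroid minus retina was -3.13 for Tek, -3.03 for Tie1 and -3.03 for Ptprb (edgeR adjusted p of 0.000144, 8.07e-05 and 0.000292). Retina lists Tek and Tie1 through the positive fraction alone, on inputs of 35 to 52 and 16 to 49 counts. Retina was more enriched than brain for Ptprb by 1.53 (edgeR adjusted p = 0.0475), while the same difference for Tek (1.15, adjusted p = 0.111) and Tie1 (1.15, adjusted p = 0.0811) did not pass. These fits carry no block for the pairs of input and positive fraction. With the lysate as a replicate block all 3 passed. Ptprb was then at 1.46 (edgeR adjusted p = 0.0233), Tek at 1.10 (adjusted p = 0.0238) and Tie1 at 1.15 (adjusted p = 0.0402).

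Of the 7 differences that passed without the block, those of Tek and Tie1 involving choroid kept their direction and their call in all 19 alternatives each. So did Ptprb for choroid against retina. The Ptprb difference of choroid minus brain lost the call in 3 of 19 alternatives. In the fit of both tables that difference was -1.49 (edgeR adjusted p = 0.0431) and lost the call in 8 of 19. For retina minus brain the Ptprb difference lost the call in 12 of 19, namely without any 1 of 11 of the 12 libraries and with library size only.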

How the results depend on the processing

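Enrichment of the 5 genes kept direction and call in 215 of 217 alternatives over 13 gene-by-tissue results, with 12 of the 13 unchanged in each alternative run. The exception was Angpt1 in brain (-1.37 to -1.12 with libraries left out in turn; 0 to 1 of the 5 called lower). Between tissues 588 of 630 alternatives gave the same direction and call, and 31 of 42 results did so in each.

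With library size only, Ptprb for retina minus brain was 1.45 (edgeR adjusted p = 0.0669; 0 of 3 called), Tek for choroid against retina positives 0.57 (adjusted p = 0.0837; 1 of 3 called higher), Angpt2 for choroid against brain positives 0.72 (adjusted p = 0.0658) and the Angpt2 enrichment difference -1.32 (adjusted p = 0.034). DESeq2 gave 2 of 3 called for retina minus brain (Tie1 1.14, adjusted p = 0.0468) and -1.07 for that Angpt2 difference (adjusted p = 0.0477). In 1 fit of all 18 libraries no member was called lower in choroid or brain (0 of 3), since Angpt1 is not among the genes in all tables. Signs turned for Ptprb, retina against brain positives (-0.13 to 0.46, negative without retina positive 421), and for Tek, choroid against brain positives over both tables (-0.013 to 0.48, negative without choroid positive 421), neither of which passed.

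The lysate as replicate block left the other member calls as they were, and 3 of 3 passed for retina minus brain. Blocking positives by number between tissues, where the labels do not say that numbers pair, gave Tek for retina against brain -0.46 (adjusted p = 0.0347) and 2 of 3 called lower. Deviations of same-numbered retina and brain positives from their group means correlated at -0.08 to 0.145.

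Counts of all genes moved more. With library size only, choroid minus brain went from 1286 higher and 1296 lower to 547 and 2196 (over both tables from 1054 and 1241 to 416 and 2043), and choroid minus retina from 1141 to 580 higher. In the fit of all 18 libraries retina enrichment went from 2226 and 1696 to 1443 and 676. With libraries left out in turn, choroid enrichment had 1066 to 2575 genes higher and 906 to 2498 lower. The retina counts were 722 to 3095 higher and 110 to 2653 lower. For brain they were 1291 to 4758 higher and 164 to 4860 lower. The lowest of these counts came without both fractions of 953 in each tissue, and the highest without choroid positive 421, retina positive 960 and both brain fractions of 960. The differences ranged from 622 to 1402 higher and 1093 to 2077 lower for choroid minus brain, 429 to 1047 and 319 to 1571 for retina minus brain (0 to 2 members called), and 599 to 1387 higher over both tables. Among the lowest were those without brain positive 953 or choroid positive 953, and the highest counts of lower genes came without brain input 960. Choroid against retina positives had 1 to 2 members called higher. The causes were not tested. Depth limits Angpt1 in choroid positives (17 to 64 counts), and Tek (35 to 52 counts) and Tie1 (16 to 49 counts) in retina inputs.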
